A study of Mus musculus with 8 samples.

Results

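The 10 genes described here encode the tissue isoform pairs of cytochrome c oxidase, 2 isoforms for each of 5 nuclear-encoded subunits: Cox4i1 and Cox4i2 (subunit IV), Cox6a1 and Cox6a2 (VIa), Cox6b1 and Cox6b2 (VIb), Cox7a1 and Cox7a2 (VIIa), and Cox8a and Cox8b (VIII). They were found among the 23360 genes of the files by matching RefSeq accessions to these symbols, and each had 1 row. The set was chosen by values measured in these libraries, the difference of each gene between the genotypes and the ratio of the isoforms within each pair. Those values are therefore given as a description, with no threshold behind the choice.

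RNA was sequenced from the inguinal fat pad, a subcutaneous white fat depot, of 6-week-old mice. The 4 control libraries came from mice with floxed Lsd1 alleles, and the 4 knockout libraries from mice in which floxed Lsd1 was deleted by Adipoq-Cre, whose promoter is active in adipocytes. Lsd1 (gene symbol Kdm1a) is a histone demethylase. Both groups carry the floxed alleles. No library here is from mice with the Cre alone, so an effect of the transgene and the loss of Lsd1 cannot be told apart, and cells of the pad other than adipocytes keep the gene. The labels name neither strain nor sex and do not say that each library is a separate mouse. Printed p-values therefore rest on the spread among libraries, which could be technical. The titles number control replicates 1 and 2 in a range apart from the other 6 libraries, and whether this marks a batch is not stated.

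Cytochrome c oxidase, complex IV of the respiratory chain, passes electrons from cytochrome c to oxygen and pumps protons across the inner mitochondrial membrane. Its catalytic core is encoded by mitochondrial DNA, and small nuclear-encoded subunits surround it. Several of these exist as a form found in most tissues and a form restricted to a few. Cox6a2, Cox7a1 and Cox8b are the forms of heart and skeletal muscle, Cox7a1 and Cox8b are also known from brown and beige fat, Cox4i2 is known from lung and from the mural cells of vessels, and Cox6b2 from testis.

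Values are scaled reads, that is read counts that the authors multiplied by 1 factor per library, and lists of 4 values run from replicate 1 to replicate 4. The libraries held 25671837 to 32442724 recovered reads. Kdm1a was at 699, 685, 799 and 735 in the controls and at 566, 578, 547 and 581 in the knockouts, so every knockout library lay below every control (log2 difference -0.36, SE 0.075). The tissue label fits its defining markers: the mean log2 value of 9 general adipocyte genes was 14.1 to 14.9 in all 8 libraries. It was 14.45 to 14.93 in the controls and 14.14 to 14.35 in the knockouts, without overlap. All 9 had a negative log2 difference (median -0.27), and 1, Cidec, a lipid droplet protein, was called lower (limma, -1.01), as were 0.356% of all genes tested. At an unadjusted p under 0.05, 4 were lower, against 5.68% of all genes. DESeq2 called 4 lower (1.95% of all genes) and edgeR 1 (0.288%). For 3 of the 9, every knockout library lay below every control, against 3.58% of all genes. The part of this in the values of the isoform genes was not tested. Libraries stood apart in 2 ways. Skeletal muscle markers (20 genes) summed to 221777, 205107 and 128582 scaled reads in knockout replicates 1, 2 and 4, against 14539 in knockout replicate 3 and 10145 to 42966 in the controls. Spermatid markers (7 genes) summed to 1598 in control replicate 1 and to 2.58 to 22.5 in the other libraries. In bulk tissue, fewer cells of a type and less RNA per cell cannot be told apart.

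Per kilobase of transcript, the isoform found in most tissues was the more abundant in all 5 pairs in all 8 libraries. In controls the order of levels was led by Cox4i1 (11974 ± 2042 scaled reads per kilobase, SD, n = 4), Cox6a1 (11889 ± 2395) and Cox8a (11120 ± 1808), whose ranges overlapped. Cox6b1 followed (7570 ± 1240) without overlapping Cox8a. The order then ran through Cox8b (4148 ± 1836), Cox7a2 (3628 ± 766), Cox7a1 (1028 ± 621), Cox6a2 (176 ± 59.9), Cox4i2 (100.3 ± 16.5) and Cox6b2 (52.5 ± 6.61). The ranges of Cox6b1 and Cox8b, of Cox8b and Cox7a2, and of Cox6a2 and Cox4i2 overlapped. Those of Cox7a2 and Cox7a1, of Cox7a1 and Cox6a2, and of Cox4i2 and Cox6b2 did not.

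The restricted isoform therefore made up very different parts of its pair. As a share of both isoforms per length, Cox8b was 26.3% ± 5.45 in controls and 28.5% ± 1.38 in knockouts (SD, n = 4 each). Cox7a1 was 20.8% ± 6.68 and 27.6% ± 4.57. Cox6a2 was 1.53% ± 0.738 and 4.46% ± 2.18, Cox4i2 0.842% ± 0.156 and 0.888% ± 0.0532, and Cox6b2 0.692% ± 0.0266 and 3.11% ± 0.373. In the bulk inguinal pad of both genotypes, the muscle and brown fat isoforms thus made up a sizeable share of the transcripts of subunits VIIa and VIII. The restricted isoforms of IV, VIa and VIb made up little of theirs. Skeletal muscle markers were present in every library, and the part of muscle RNA in these shares was not tested.

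**Figure D1:**
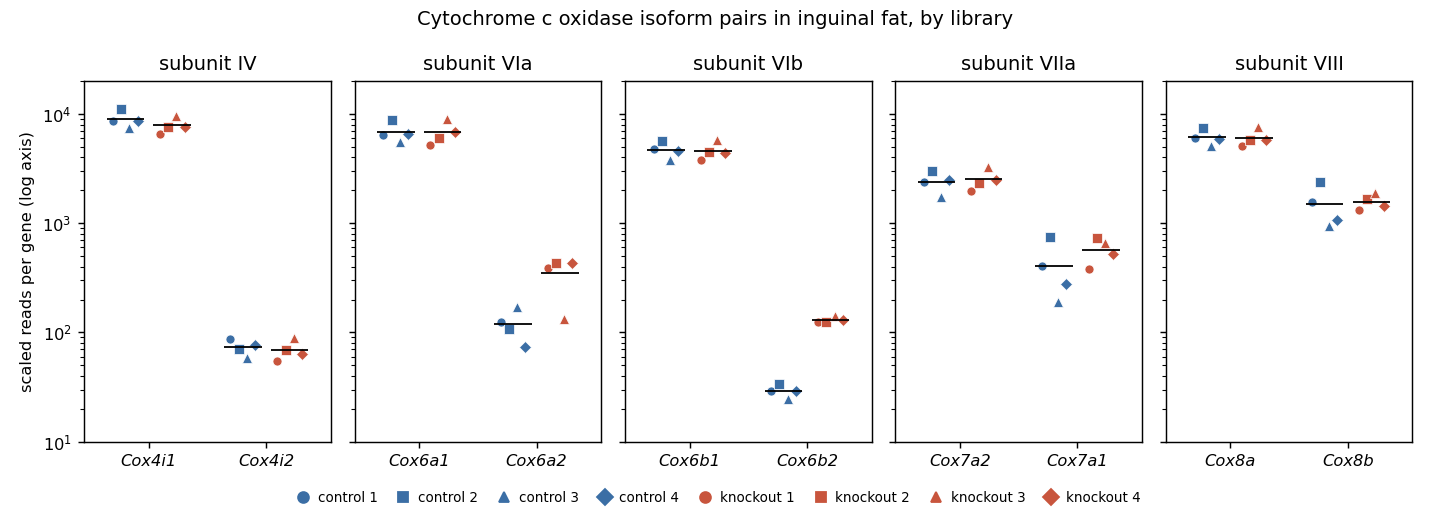
Scaled reads (log axis) of the 10 isoform genes in each library, with 1 panel per subunit, the isoform of most tissues on the left and the restricted isoform on the right. Points are libraries, with a marker shape per replicate number, which does not pair the groups, and lines are group means. Cox6b2 is at 24.5 to 33.4 in controls and 124 to 142 in knockouts.

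Subunit VIb lies on the face of the complex that points to the intermembrane space, at the contact between the monomers of the dimer. Its restricted isoform Cox6b2 differed most between the genotypes. Cox6b2 was at 29.3, 33.4, 24.5 and 28.9 scaled reads in the controls and at 125, 124, 142 and 131 in the knockouts. All 4 knockout libraries lay above all 4 controls, and the spread within each group was small. The means were 29.0 ± 3.65 and 131 ± 8.48, a 4.5-fold difference (2.14 on the log2(value + 1) scale, SE 0.14), and they rested on 50 to 68 recovered reads in a control library and 228 to 322 in a knockout library.

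The isoform of most tissues, Cox6b1, was at 4743, 5625, 3754 and 4591 in controls and 3803, 4482, 5823 and 4375 in knockouts. Its groups overlapped (log2 difference -0.02, SE 0.15). The log2 ratio of Cox6b2 to Cox6b1 was -7.35 to -7.20 in the controls and -5.34 to -4.92 in the knockouts, a difference of 2.16 (SE 0.096). Thus the ratio moved with Cox6b2, while Cox6b1 remained by far the more abundant transcript in every library.

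In the fit over all 14591 genes tested (limma, Benjamini-Hochberg adjusted p under 0.05), 1 of the 10 isoform genes was called higher, Cox6b2 (adjusted p = 0.000250). Of all genes tested, 1.64% were called, 1.28% higher and 0.356% lower. At an unadjusted p under 0.05, 2 were higher, against 8.84% of all genes. edgeR called 1 higher (1.49% of all genes called, 1.21% higher and 0.288% lower) and DESeq2 2 (5.32% called, 3.37% higher and 1.95% lower). No isoform gene was called lower, nor was any lower at an unadjusted p under 0.05 (0 of 10, against 5.68% of all genes) or with edgeR (0) or DESeq2 (0). The groups were fully separate for 1 of 10 isoform genes, again Cox6b2. This held for 8.65% of all genes tested, 5.06% with the knockouts above and 3.58% with the knockouts below. Because this comparison helped to choose the genes, these counts describe them and support nothing. All 10 passed the filter on low values with at least 10 scaled reads in all 8 libraries.

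Muscle and spermatid markers moved between libraries, and their values stand here beside Cox6b2. Over the 8 libraries the Pearson r of Cox6b2 with Cox6a2, the muscle isoform of subunit VIa, was 0.726 on log2 values. Knockout replicate 3, with muscle markers in the range of the controls, had the highest Cox6b2 value (142). With the muscle marker score as a covariate the log2 difference was 2.23 (SE 0.18), where 1.69% of all genes were called. With knockout replicate 3 alone against the controls it was 2.26 (SE 0.29, limma adjusted p = 0.0590), where 0.12% were called. Without control replicates 1 and 2 together it was 2.25 (SE 0.16), where 0.679% were called. Control replicate 1, the library with spermatid transcripts, had 29.3 scaled reads of Cox6b2, within the range of the other controls (24.5 to 33.4), and the log2 difference without it was 2.15. In the knockouts the 7 spermatid markers together summed to 4.35 to 22.5 scaled reads. Of the testis isoforms of other subunits, Cox7b2 (subunit VIIb) was at 7.81 scaled reads in control replicate 1 and at 0 to 0.49 elsewhere. Cox8c (subunit VIII) was at 14.6 in control replicate 1 and at 0 to 0.98 elsewhere. The muscle score was 8.20 to 9.74 in the controls and 11.6 to 11.9 in knockout replicates 1, 2 and 4. It thus followed genotype in part. The part of RNA from muscle or testis in the Cox6b2 values was not tested.

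Cox6b2 lies on the minus strand of chromosome 7 from 4751792 to 4753094 (GRCm38.p6, the base assembly of mm10), and GENCODE places no other gene on its exons. The gene upstream, Fam71e2, ends 131 bases away on the same strand and was at 0 to 2.18 scaled reads in the knockouts, at 25.4 in control replicate 1 and at 0 to 1.97 in the other controls. The gene on the other side, Kmt5c, a histone methyltransferase, was at 879 ± 82.8 and 948 ± 37.4 (log2 difference 0.11, SE 0.083, limma adjusted p = 0.582). No stretch of 50 bases of the Cox6b2 transcript occurred in a transcript of another gene in GENCODE M21, and its longest exact match to Cox6b1 was 14 bases.

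The windows before the start sites of the pair are shown because the groups were separate for Cox6b2 and overlapped for Cox6b1. They come from RefSeq on GRCm38.p6, run 5′ to 3′ on the gene's strand and leave out bases that GENCODE places in an exon. Capitals mark matches to CANNTG, the E-box. The Cox6b2 window is chr7:4753095-4753225 (minus strand, 131 bases, up to the start) and that of Cox6b1 is chr7:30626152-30626364 (minus strand, 213 bases, from 38 to 250 bases before the start).
Cox6b2: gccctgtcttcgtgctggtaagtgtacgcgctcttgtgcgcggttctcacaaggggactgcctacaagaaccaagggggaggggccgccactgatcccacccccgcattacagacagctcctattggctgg
Cox6b1: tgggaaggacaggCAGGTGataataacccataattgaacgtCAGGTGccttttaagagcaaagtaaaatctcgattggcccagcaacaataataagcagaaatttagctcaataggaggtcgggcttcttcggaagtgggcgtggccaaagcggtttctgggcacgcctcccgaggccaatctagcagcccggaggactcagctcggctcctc
Over the full 250 bases before each start, Cox6b2 held no E-box and Cox6b1 held 2, where 66.2% of 32851 promoters in the table held at least 1 on either strand. CG dinucleotides numbered 8 before Cox6b2 and 14 before Cox6b1, against a median of 6 over all promoters.

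**Figure D2:**
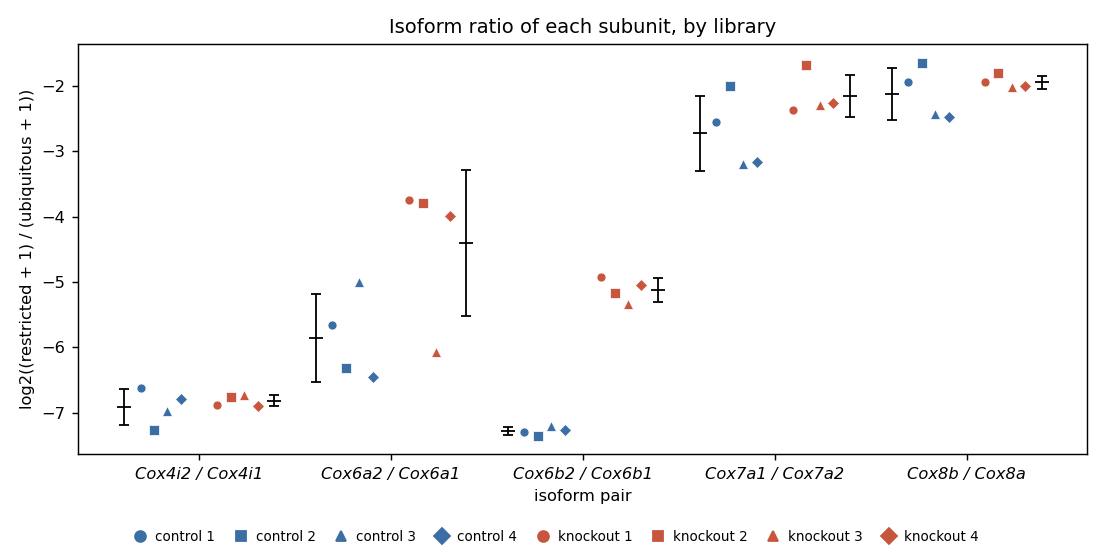
Log2 ratio of the restricted isoform to the isoform of most tissues in each library (vertical axis), for the 5 pairs (horizontal axis). Points are libraries, and bars beside them give the mean and SD of 4 libraries. The knockout points of Cox6b2 over Cox6b1 all lie above the controls, and those of Cox6a2 over Cox6a1 split, with knockout replicate 3 at -6.07 and the other knockouts at -3.99 to -3.74.

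Subunit VIa also sits at the dimer contact, and its restricted isoform Cox6a2 is a transcript of heart and skeletal muscle. Cox6a2 was at 125, 109, 171 and 73.2 scaled reads in the controls and at 390, 435, 133 and 429 in the knockouts. Knockout replicates 1, 2 and 4 were high, and knockout replicate 3 lay inside the range of the controls, so the groups overlapped. The means were 120 ± 40.8 and 347 ± 144 (log2 difference 1.45, SE 0.39), and Cox6a2 was not called in the fit over all genes (limma adjusted p = 0.115) or by edgeR (0.0803).

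The high Cox6a2 libraries were those with a high sum and a high mean log2 value of the muscle markers. All 20 muscle markers in the files had a positive log2 difference (median 1.92, against 0.02 over all genes tested). None passed (limma). At an unadjusted p under 0.05, 11 of 20 were higher, against 8.84% of all genes, and edgeR called 0 and DESeq2 6, against 3.37% of all genes. The defining markers were far from 0: Acta1, the actin of skeletal muscle, was at 45249, 38179 and 27678 in knockout replicates 1, 2 and 4 and at 2986 in knockout replicate 3. Not every marker followed this order: Myh1 was at 2630 in control replicate 1 and 745 in knockout replicate 2, and Actn2 at 378 and 158. Relative to the mean log2 value of the muscle markers, Cox6a2 was at -2.56 to -1.98 in the controls, at -3.30, -2.86 and -2.96 in knockout replicates 1, 2 and 4, and at -1.40 in knockout replicate 3. With the muscle marker score as a covariate the log2 difference of Cox6a2 was 0.52 (SE 0.17, limma adjusted p = 0.135), and with knockout replicate 3 alone against the controls it was 0.22 (SE 0.42). It was called with DESeq2 (1.52, adjusted p = 0.000520, where 5.32% of all genes were called), and without knockout replicate 3 (limma, 1.86, adjusted p = 0.00688, where 2.96% were called).

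Its partner Cox6a1 was at 6364, 8728, 5521 and 6543 in controls and at 5243, 6048, 8988 and 6822 in knockouts (log2 difference -0.01, SE 0.18). The log2 ratio of Cox6a2 to Cox6a1 ranged from -6.46 to -5.00 in the controls and from -6.07 to -3.74 in the knockouts, with a difference of 1.46 (SE 0.65). This ratio therefore followed Cox6a2 and was the most variable of the 5 among knockout libraries. The Cox6a2 gene (chromosome 7, 128205435 to 128206366) shares 70 exonic bases with Itgad on the opposite strand, where reads cannot be assigned without strand information. Genes whose pattern over the 8 libraries was most like that of Cox6a2 were Cav3 (Pearson r = 0.993 on log2 values), the caveolin of muscle, Ppp1r27 (0.993) and Des (0.982), the intermediate filament desmin. Such r values describe libraries that share genotype and muscle content and fall into high and low groups.

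Subunit VIIa takes part in contacts between respiratory complexes, and Cox7a1 is its form in heart, muscle and brown fat. Cox7a1 was at 406, 745, 190 and 275 scaled reads in the controls and at 383, 730, 660 and 519 in the knockouts. Controls 1 and 2 reached the level of the knockouts while controls 3 and 4 lay below all of them, so the groups overlapped. The log2 difference was 0.65 (SE 0.37), it was 1.28 (SE 0.27, limma adjusted p = 0.113) without control replicates 1 and 2 together, and it went down to 0.35 without control replicate 3 and up to 1.0 without control replicate 2. Cox7a2 was at 2372, 2974, 1745 and 2473 in controls and at 1982, 2339, 3241 and 2487 in knockouts (0.07, SE 0.18). The log2 ratio within the pair was -3.20 to -2.0 in the controls and -2.37 to -1.68 in the knockouts, a difference of 0.57 (SE 0.33).

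Subunit VIII is a small membrane-spanning subunit, and Cox8b, like Cox7a1, is a form of heart, muscle and brown fat. Cox8b was at 1576, 2394, 938 and 1064 in the controls and at 1314, 1659, 1882 and 1430 in the knockouts. The knockout values lay within the range of the controls. The log2 difference was 0.16 (SE 0.26), and 0.64 (SE 0.15, limma adjusted p = 0.161) without control replicates 1 and 2 together. Cox8a was at 6030, 7458, 5057 and 5919 in controls and at 5039, 5791, 7606 and 5722 in knockouts (-0.02, SE 0.15). The log2 ratio of Cox8b to Cox8a was -2.47 to -1.64 in controls and -2.01 to -1.80 in knockouts (difference 0.18, SE 0.21).

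Cox7a1 and Cox8b varied together over the 8 libraries (Pearson r = 0.921 on log2 values), and their r with Cox6a2, also an isoform of muscle, was 0.244 and -0.03. Both also varied with the isoforms of most tissues, at r of 0.460 to 0.746 for Cox7a1 and 0.677 to 0.805 for Cox8b. The mean log2 value of 13 brown or beige adipocyte markers was 8.26, 8.15, 7.23 and 7.58 in the controls. It was 7.64, 8.17, 8.5 and 7.51 in the knockouts. The 4 libraries with the highest scores were also the 4 highest in Cox8b. Cox7a1 kept to this order less closely, at 406 in control replicate 1 with the higher score and at 519 in knockout replicate 4 with the lower one. Relative to this marker score, Cox8b spanned 0.718 log2 units over the libraries, against 1.35 for Cox8b itself, and Cox7a1 spanned 1.17 against 1.97. Of the 12 markers tested, none was called in either direction (limma), edgeR and DESeq2 called 0, and the median log2 difference was -0.01. Of all genes, limma called 1.64%, edgeR 1.49% and DESeq2 5.32%. At an unadjusted p under 0.05, 1 was higher and 0 lower, against 8.84% and 5.68% of all genes. The higher one was Otop1, at 638, 613, 246 and 241 in controls and 758, 1333, 1860 and 819 in knockouts (1.51, SE 0.39, limma adjusted p = 0.108). Ucp1, the uncoupling protein that defines brown and beige adipocytes, was at 3189, 1639, 384 and 756 in controls and 167, 1370, 4732 and 447 in knockouts. The part of these markers in the Cox7a1 and Cox8b values was not tested. The gene most like Cox8b over the libraries was Cidea (r = 0.962), a lipid droplet protein of brown and beige adipocytes that is itself among the 13 markers. Btbd1 (0.958) and Gm44502 (0.946) came next. For Cox7a1 they were Gnao1 (0.961), a G protein alpha subunit, Pip4p2 (0.953) and Cpne8 (0.950).

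**Figure D3:**
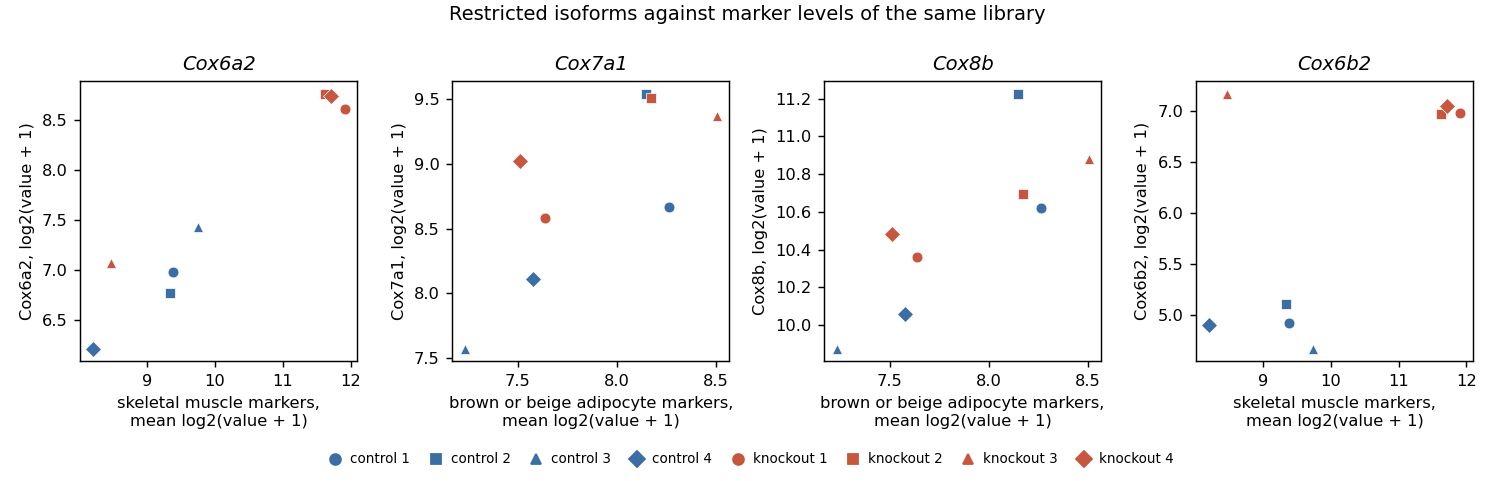
Log2(value + 1) of Cox6a2, Cox7a1, Cox8b and Cox6b2 (vertical axes) against the mean log2(value + 1) of skeletal muscle or brown and beige adipocyte markers in the same library (horizontal axes). Points are libraries, blue for control and red for knockout. The high Cox6a2 values lie at muscle scores of 11.6 to 11.9, and Cox6b2 is high in all 4 knockout libraries, knockout replicate 3 with a muscle score of 8.46 included.

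The windows before the start sites of Cox7a1 and Cox8b are shown because these 2 genes varied together. That of Cox7a1 is chr7:30183921-30184143 (plus strand, 223 bases, from 28 to 250 bases before the start) and that of Cox8b is chr7:140900447-140900696 (minus strand, 250 bases). Capitals again mark CANNTG.
Cox7a1: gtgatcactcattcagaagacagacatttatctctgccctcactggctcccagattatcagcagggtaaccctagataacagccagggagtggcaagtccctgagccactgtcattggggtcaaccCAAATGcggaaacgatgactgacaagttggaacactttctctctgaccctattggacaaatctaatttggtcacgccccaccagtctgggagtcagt
Cox8b: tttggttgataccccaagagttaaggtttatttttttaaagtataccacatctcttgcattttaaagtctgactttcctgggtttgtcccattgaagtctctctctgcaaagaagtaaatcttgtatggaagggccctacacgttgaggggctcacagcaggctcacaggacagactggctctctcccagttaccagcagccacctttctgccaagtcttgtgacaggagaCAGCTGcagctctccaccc
Each held 1 E-box. Over 250 bases, none of AAGGTCA (a nuclear receptor half-site, in 4.08% of all promoters), TGCGCA (the core of the NRF1 site, 6.43%), the MEF2 consensus (2.92%), CCGGAAG (an ETS site, 6.91%) or TATAAA (12.4%) was found on either strand before Cox7a1, Cox8b or Cox6b2, so no matches overlapped in the windows shown. Cox6a1 held 1 TGCGCA and 1 CCGGAAG, and Cox6b1 1 CCGGAAG. The restricted isoform had fewer CG dinucleotides before its start than its partner in the 3 pairs with both promoters in the table: 4 for Cox7a1 and 14 for Cox7a2, 1 for Cox8b and 11 for Cox8a, and 8 and 14 for Cox6b2 and Cox6b1. The table held 7 of the 10 promoters, and those of Cox4i1, Cox4i2 and Cox6a2 are not used here. Of the 10 genes 5 lie on chromosome 7. Besides Cox6b2 and Cox6a2 these are Cox6b1 (30616971 to 30626114), Cox7a1 (30184171 to 30186030) and Cox8b (140898942 to 140900446). The others are Cox4i1 (chromosome 8, 120668225 to 120674209), Cox4i2 (chromosome 2, 152753916 to 152765039), Cox6a1 (chromosome 5, 115345652 to 115348958), Cox7a2 (chromosome 9, 79755241 to 79771422) and Cox8a (chromosome 19, 7215158 to 7217616), all on GRCm38.p6.

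Subunit IV is the largest nuclear-encoded subunit and a site at which nucleotides regulate the enzyme. Cox4i2 was at 86.4, 70.8, 57.8 and 76.8 scaled reads in the controls and at 54.5, 68.6, 89.8 and 63.4 in the knockouts. The groups overlapped (log2 difference -0.09, SE 0.19). Cox4i1 was at 8629, 11037, 7412 and 8604 in controls and at 6549, 7583, 9618 and 7666 in knockouts (-0.18, SE 0.15). The log2 ratio of Cox4i2 to Cox4i1 was -7.26 to -6.63 in controls and -6.90 to -6.73 in knockouts, a difference of 0.096 (SE 0.14). Mural cell markers, listed because Cox4i2 is known from these cells, had a mean log2 value of 9.384 to 9.649 in controls. It was 9.252 to 9.383 in knockouts, so the knockouts lay below the controls by a very small gap. All 10 had a negative log2 difference (median -0.17). None was called (limma). At an unadjusted p under 0.05, 2 of 10 were lower, against 5.68% of all genes, and edgeR called 0 and DESeq2 1, against 1.95%. Their part in the Cox4i2 value was not tested. Genes most like Cox4i2 over the libraries were Ptpmt1 (Pearson r = 0.979), a mitochondrial phosphatase, Tmem69 (0.978) and Tkt (0.971), the transketolase of the pentose phosphate pathway. Cox4i1 shares 154 exonic bases with Emc8, where its reads are uncertain.

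The 5 isoforms of most tissues moved together across libraries rather than with genotype. Control replicate 2 was the highest and control replicate 3 the lowest control for each of Cox4i1, Cox6a1, Cox6b1, Cox7a2 and Cox8a, and knockout replicate 3 was the highest and knockout replicate 1 the lowest knockout for each. Their log2 differences lay between -0.18 and 0.07, and none of the 5 was called (limma adjusted p = 0.616 to 0.984). The same highest and lowest libraries were seen for the restricted isoform Cox8b and, outside the pairs, for Cox5a, Cox5b, Cox6c, Cox7b and Ndufa4. They were not seen for the other restricted isoforms, Cox7c or Cox7a2l, so this order was not particular to the isoforms of most tissues.

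The subunits of the complex outside the pairs showed a similar range of log2 differences. Of 12 listed, 9 were in the files and 7 were tested: Cox5a, Cox5b, Cox6c, Cox7b, Cox7c, Ndufa4 and Cox7a2l, the last known for joining complex IV to complex III. None was called in either direction (limma), none passed at an unadjusted p under 0.05 (0 higher, 0 lower), and edgeR and DESeq2 called 0. Of all genes tested, limma called 1.64%, edgeR 1.49% and DESeq2 5.32%, and 8.84% were higher and 5.68% lower unadjusted. Among 7 genes, counts of 0 are near these shares. Their log2 differences were -0.05 to 0.18, with a median of 0.03 against 0.02 over all genes tested. Cox5a was at 3045 ± 733 in controls and 2921 ± 574 in knockouts (-0.05, SE 0.19), and Cox6c at 2831 ± 485 and 2848 ± 433 (0.01, SE 0.14). Cox7c was at 189 ± 34.1 and 216 ± 52.2 (0.18, SE 0.19). Some of these levels are uncertain, since the share of 50-base windows that also occurred in other annotated genes was 53.0% for Cox7c, 32.0% for Cox5a, 25.9% for Cox5b, 21.1% for Cox6c and 19.8% for Cox7a2l. Among the isoform genes this share was 12.3% for Cox6a1, 12.2% for Cox4i1, 3.33% for Cox6a2 and 0 for the other 7. The mitochondrially encoded core subunits are not used here.

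**Figure D4:**
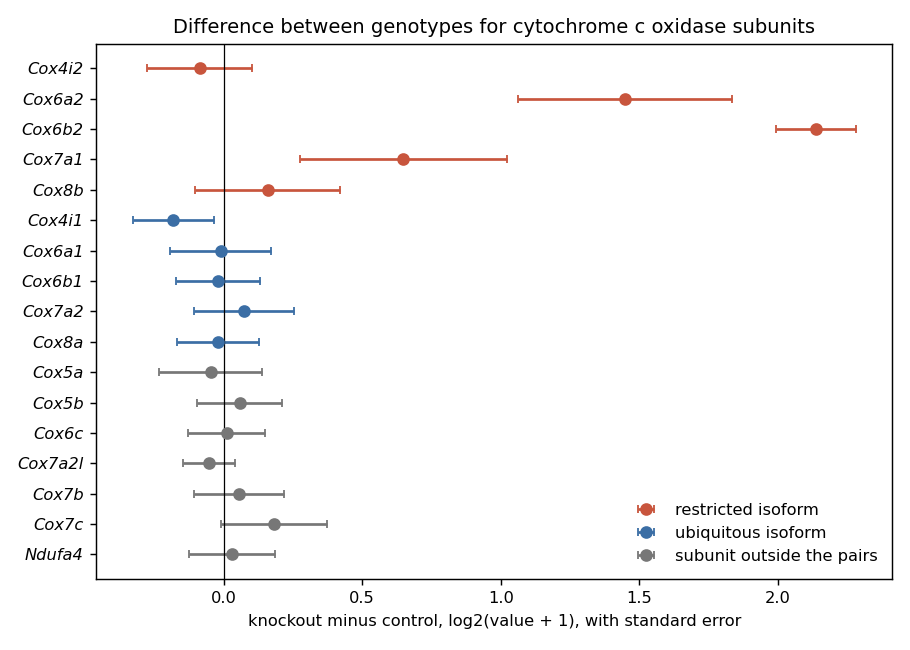
Knockout minus control difference on the log2(value + 1) scale (horizontal axis), with its standard error, for the 10 isoform genes and the 7 tested subunits outside the pairs (vertical axis). Colours separate restricted isoforms, isoforms of most tissues and subunits outside the pairs. Cox6b2 (2.14) and Cox6a2 (1.45) lie farthest to the right, and Cox6a2 has the wider error.

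For assembly factors of the complex, which insert heme and copper or join subunits, 13 log2 differences were positive and 12 negative. Of 25 tested, 0 were called higher or lower (limma), 0 were higher and 2 lower at an unadjusted p under 0.05, edgeR called 0, and DESeq2 called 1 lower. The shares lower among all genes were 5.68% unadjusted and 1.95% with DESeq2. In either direction, limma called 1.64% and edgeR 1.49% of all genes. The median log2 difference was 0.0018. The gene called by DESeq2 was Lrpprc, which stabilises mitochondrial messenger RNA and was singled out after its values were seen. It was at 1228, 1187, 1099 and 1113 in controls and 959, 1007, 946 and 961 in knockouts, so the groups did not overlap (log2 difference -0.26, SE 0.067, limma adjusted p = 0.111). Cox10, which farnesylates heme on the way to heme A, was at 424 ± 43.1 and 432 ± 104 (0.0018, SE 0.16). Cox11, a copper chaperone, was at 268 ± 36.0 and 277 ± 38.5 (0.04, SE 0.14), and Cox15, a heme A synthase, at 657 ± 37.4 and 622 ± 55.7 (-0.08, SE 0.088).

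Of 17 regulators of mitochondrial genes and of Cox4i2, 1 was called higher and 1 lower (limma), against 1.28% and 0.356% of all genes, with a median log2 difference of -0.04. At an unadjusted p under 0.05, 1 was higher and 2 lower, against 8.84% and 5.68% of all genes. With edgeR 1 was called higher and 0 lower (1.21% and 0.288% of all genes), and with DESeq2 1 higher and 2 lower (3.37% and 1.95%). Esrrb, a nuclear receptor related to the estrogen receptor, was at 8.79, 7.37, 11.8 and 18.6 scaled reads in controls and at 27.3, 40.3, 57.1 and 48.9 in knockouts (1.84, SE 0.32, adjusted p = 0.0238). It reached 10 in only 2 controls and so passed the filter on low values through the knockouts, where it was high. The count of 1 regulator higher is for that reason a description. With no filter the limma adjusted p was 0.0342. The call was lost when control replicate 1, 2 or 3 or knockout replicate 2 or 4 was left out (adjusted p 0.0501 to 0.101). Leaving out both control replicates 1 and 2 gave 0.166. With knockout replicate 3 alone or a filter of 50 it was not tested. Epas1, the hypoxia-inducible factor subunit HIF-2 alpha, fell from 5251 ± 407 to 4030 ± 151 (-0.38, SE 0.079, adjusted p = 0.0498), and this call was lost in 16 of 20 alternatives, 6 of them without a single library (all but control replicate 3 and knockout replicate 3). Others were not called in the main fit. Without knockout replicate 1, 1 regulator other than Epas1 was called lower (limma), where 1.64% of all genes were called. Ppargc1a, a coactivator of mitochondrial biogenesis, was at 184 ± 57.5 and 236 ± 50.1 (0.38, SE 0.22), and Ppargc1b at 191 ± 53.8 and 103 ± 33.6 (-0.89, SE 0.24, limma adjusted p = 0.119), with DESeq2 calling it lower (0.0123). Esrra, a nuclear receptor that acts with them, was at 1243 ± 87.3 and 1263 ± 193 (0.01, SE 0.11).

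Genes whose pattern over the 8 libraries was most like that of Cox6b2 were Baiap2l2 (Pearson r = 0.990 on log2 values), Pgap4 (0.989) and Vat1l (0.986). Baiap2l2 was at 19.1 to 27.03 scaled reads in controls and 73.6 to 79.6 in knockouts, and Vat1l at 233 to 303 and 1144 to 1628. These r values rest on the step between the genotypes, which all of these genes share with other genes that differ between the groups.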

How the data were processed

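RNA sequencing of inguinal fat gave 4 control and 4 knockout libraries. The authors aligned reads with TopHat version 2 to mm10 and counted them with HOMER, per the submitters' processing notes and design text. Annotation, strandedness and scaling factors are not stated there. The deposited values are a signal: read counts multiplied by 1 factor per library. All values below 10000 steps were whole multiples of the library's step within 0.02, so whole reads were recovered by division (25671837 to 32442724 per library). In control replicate 1, 361 values lay at 1 step and 642 at 2 steps, so a step may not be 1 independent fragment, and counting error may exceed what these reads imply. Of 23373 rows, 1 without an accession and with a value of 0 was left out. Accessions were matched to symbols through RefSeq's GRCm38.p6 table (22527) and then GENCODE M21 (124), 721 kept their accession, and 12 further rows of a symbol were dropped for the row with the higher total.

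The main fit was limma (3.58.1, R 4.3.3) on log2(value + 1) with its trended variance, genotype as the only term, on genes that reached 10 in 4 or more libraries, with Benjamini-Hochberg adjustment over all 14591. Fold changes on this scale understate changes of low genes. edgeR (4.0.16) quasi-likelihood and DESeq2 (1.42.0) were run on recovered reads, where edgeR called 218 genes. Isoform ratios are log2 of (value + 1) over (value + 1). Levels per length used the GENCODE M21 transcript of each accession, and exon overlaps and windows of 50 bases came from the same release. Marker scores are mean log2(value + 1). Named genes were the 10 isoform genes, Kdm1a, the 3 genes most correlated with each restricted isoform, and members of fixed lists. Neighbouring genes, exon overlaps and shared windows were looked up after the values were seen. The members, lists and alternatives were chosen with earlier results of these data known. The planned alignment of the paired proteins was not run. Python was 3.11.15 with pandas 2.3.3.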

Additional observations from a re-analysis of the deposited data

Results flagged for a closer look

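Of 50 groups of 4 libraries checked, 8 held a library whose gap to its nearest neighbour took more of the group's range than Dixon's 95% critical value. Chance alone marks about 1 in 20 independent groups of normally distributed values. Several flags here share a library, and Cox8c was at 0 in all but 1 knockout, so the count cannot be set against that rate. Knockout replicate 3 stood below the other knockouts in Cox6a2 (133 scaled reads against 390 to 435), in the log2 ratio of Cox6a2 to Cox6a1 (-6.07 against -3.99 to -3.74) and in the skeletal muscle marker score (8.46 against 11.6 to 11.9). Knockout replicate 2 stood above the other knockouts in the log2 ratio of Cox7a1 to Cox7a2 (-1.68 against -2.37 to -2.26). Control replicate 1 stood above the other controls in the spermatid marker score (7.58 against 0.378 to 1.55), in Cox7b2 (7.81 scaled reads against 0 to 0.49) and in Cox8c (14.6 against 0 to 0.98). Cox8c in knockout replicate 3 was at 0.88, which is 2 recovered steps, against 0 in the other knockouts.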

How the results depend on the processing

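The contrast between genotypes helped to choose the isoform genes, so the tallies for them here describe refits of the same libraries and support nothing. Cox6b2 had a log2 difference of 2.00 to 2.26 over 20 alternatives and was called in 19. With knockout replicate 3 alone against the controls, a fit that assumes this lone library varies like the controls, it was 2.26 (limma adjusted p = 0.0590) and 0 isoform genes were called, with 17 calls (0.12%) among all genes. The number of isoform genes called higher was 2 with DESeq2, and 1 to 2 when 1 library was left out. The number called lower was 0 throughout. For regulators, the number higher was 0 with the filter of 50, without control replicates 1 and 2 together and with knockout replicate 3 alone, and 0 to 1 when 1 library was left out. The number lower was 0 with TMM, RLE or library totals, a pseudocount of 0.5, no filter, the filter of 50, edgeR, the muscle covariate, without control replicates 1 and 2 together and with knockout replicate 3 alone, 2 with DESeq2, and 0 to 1 when 1 library was left out. For other subunits and assembly factors it was 1 with DESeq2. Over the 14 alternatives not given in the text, 0.491 to 1.67% of all genes were called. The causes were not tested.

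In some alternatives the genotype difference of an isoform ratio departed from its main value by more than the pooled SD of replicates. These were Cox6a2 (-0.21) and Cox6b2 (1.93) with knockout replicate 3 alone and Cox6b2 with a pseudocount of 5 (2.02). Cox8b without control replicates 1 and 2 together (0.51) was the last. Log2 differences of single genes that were near 0 changed sign. With the muscle covariate these were Cox4i1 (0.023), Cox4i2 (0.21), Cox6a1 (0.28), Cox6b1 (0.22) and Cox8a (0.21). With knockout replicate 3 alone they were 0.12, 0.31, 0.43, 0.33 and 0.33. Without control replicates 1 and 2 together they were Cox4i2 (0.027), Cox6a1 (0.14), Cox6b1 (0.14) and Cox8a (0.13), and with library totals Cox6a1 (0.00046). When 1 library was left out, the range was -0.22 to 0.018 for Cox4i2, -0.16 to 0.12 for Cox6a1, -0.14 to 0.073 for Cox6b1, -0.069 to 0.19 for Cox7a2, -0.14 to 0.079 for Cox8a and -0.030 to 0.42 for Cox8b. No paired analysis was possible because the sample numbers in the titles are not shared between genotypes. With 4 libraries a group, differences smaller than the spread given could not be resolved.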
